A study of Oryza sativa with 4 samples.

Results

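Of the 2589 rice genes that the authors placed near a confident OsMADS2 region, 174 had 2 or more different regions and met the rule described here. A confident region is a stretch of the genome with a peak in each of the authors' 3 peak lists. None had a highest peak fold under 2 in any list. The 174 genes were chosen by the number of regions assigned to them, so that number, the peak calls and the folds below are a description of what was chosen and carry no test. In the whole gene table, 254 genes had 2 or more regions, which is 9.81% of the 2589. Genes listed under any of the authors' gene ontology terms (77 of the 254) were left out, as were genes of several transcription factor, F-box, PHD-finger and beta-glucosidase families (3 more by symbol). Among the 1949 genes outside those exclusions, the 174 made up 8.93%. Of the 174, 162 had 2 regions, 11 had 3 and 1 had 4.

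The data came from chromatin immunoprecipitation and sequencing (ChIP-seq) of wild-type TP309 rice panicles 0.3 to 2 cm long. The 2 libraries made with an anti-OsMADS2 antibody are called IP5 and IP6, and the 2 made with rabbit IgG are called mock 5 and mock 6. Per the file headers, 5 and 6 stand for 2 biological replicates. Chromatin was fixed with formaldehyde and cut by micrococcal nuclease. All 4 libraries came from wild-type plants, and none from plants lacking OsMADS2 was used here, so the mock is the only background. Whole panicles were used, and the signal is therefore an average over every cell type they held.

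OsMADS2 belongs to the PISTILLATA-like MADS-domain proteins. These proteins pair with APETALA3-like partners, bind DNA as part of larger MADS complexes, and are known for setting the identity of lodicules (the grass counterpart of petals) and stamens. MADS complexes can hold DNA at more than 1 site and loop the stretch between. Looping was not measured here.

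Uniquely mapped reads ran from 9142837 in IP5 to 16742118 in mock 6, and from 40.9% to 53.4% of the raw reads. The peak lists are called the replicate 5 call (IP5 over mock 5, 24169 peaks), the crossed call (IP5 over mock 6, 58213 peaks) and the replicate 6 call (IP6 over mock 6, 10602 peaks). Every fold and q below is the authors' own value for a peak, made from 1 IP library and 1 mock library, so it carries no replicate error. The fold of a region is that of its highest peak in the list named. The lists held peaks with folds down to 1.42, 1.38 and 1.21, in the order above, but no region had one under 2. Folds of regions are thus cut off at about 2 in each list. The replicate 5 and replicate 6 calls share no library, while the crossed call shares a library with each of them. Coordinates are as deposited, and the build was not given in the sources used here.

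The 174 genes lay in fewer places than their number implies. They shared 231 regions in 361 region-gene pairs and fell into 108 loci, a locus being a set of the genes joined by shared regions. Of these loci, 59 held a single gene, 36 held 2, 10 held 3, 2 held 4 and 1 held 5. Only 115 different sets of regions occurred, and 106 genes had exactly the regions of another of the 174. Shared regions were general in the gene table, where 1442 regions gave 2862 pairs with 2589 genes. The median number of table genes per region was 2 for the 231 regions and 2 for the others. No count of loci over the whole table is given here. The locus of 5 genes on chromosome 8 rested on 2 regions, 24076391 to 24078491 and 24079540 to 24080066. Its genes are Os08g0486801, Os08g0486867, Os08g0486933, Os08g0487000 and Os08g0487050. The wider region there had a fold of 2.81 in the replicate 5 call, 4.06 in the crossed call and 3.43 in the replicate 6 call. The narrower region had 3.57, 2.10 and 3.48 in the same order. Counts of genes below are thus not counts of independent sites.

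Overlapping genes on opposite strands accounted for part of this sharing. Of the 174 genes, 48 (27.6%) overlapped another of the 174 on the other strand, in 25 pairs, and none overlapped a gene of the set on its own strand. Against all genes of the table, 74 of the 174 (42.5%) overlapped a gene on the other strand, beside 706 of the 2335 genes with 1 region (30.2%). The exclusions were applied to the 174 but not to the 2335, of which 1775 lie outside them. The groups are therefore not matched, here or in the comparisons with the 2335 below. ChIP-seq peaks carry no strand, so a region across such a pair cannot be given to either gene.

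The 174 genes were, by their median, shorter than the rest of the table. Their median length was 2075 bp, with quartiles of 937 and 3955 bp and a range of 222 to 16949 bp. The 2335 genes with 1 region had a median of 2701 bp and quartiles of 1390 and 4355 bp. The 80 genes with 2 or more regions that the exclusions removed had a median of 2742 bp. No test was made of these lengths, since overlapping genes and shared regions make the genes dependent. The exclusions were not applied to the 2335, so the difference cannot be credited to the number of regions.

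Genes with no region on the gene itself were a smaller share of the 174 than of the whole table, but not so per region-gene pair. All regions touched the gene in 37 genes, and a touching region was joined by an upstream one in 36, by a downstream one in 32 and by both in 3. In the remaining 66 genes (37.9%) no region touched the gene, beside 52.7% over the whole table. Regions lay on both sides of the gene in 26 of these 66, only upstream in 23 and only downstream in 17. In 30 of the 66, every region touched some other gene of the table, a share that was not counted for other genes.

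**Figure D1:**
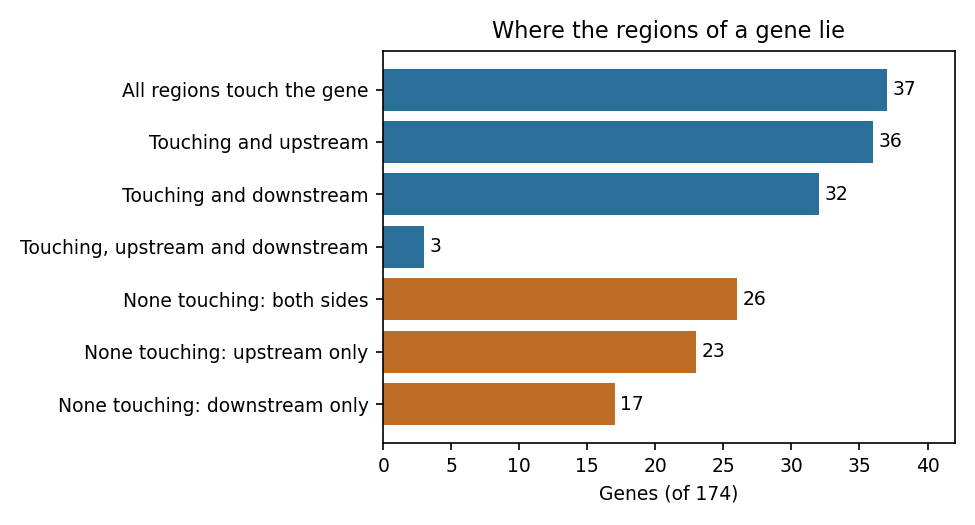
Number of genes (horizontal axis, of 174) by where their regions lie (vertical axis). Blue bars are genes with at least 1 region that touches the gene, and brown bars are the 66 genes with none. The longest bar is the 37 genes with every region on the gene.

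Gene starts were touched more often per gene and less often per region. A region crossed the start in 64 of the 174 genes (36.8%), beside 26.3% of all table genes and 24.5% of genes with 1 region. A gene with more regions has more chances of this. Per region-gene pair, 64 of 361 crossed the start (17.7%), beside 572 of 2335 (24.5%) for genes with 1 region. Upstream regions made up 31.0% of the pairs of the 174 genes and 25.1% of those of genes with 1 region, and regions inside the gene 17.7% and 15.9%. None of these differences was tested, and the exclusions were not applied to the genes with 1 region.

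In 7 genes 1 region crossed the start and another the end: Os01g0511000, Os01g0917700, Os02g0797600, Os04g0539601, Os05g0359700, OsFLA26 (Os05g0459700) and Os08g0438501. OsFLA26 is named as a fasciclin-like arabinogalactan protein, a class of cell surface glycoprotein. Its start region (chromosome 5, 22586605 to 22587175) had folds of 4.16 in the replicate 5 call, 2.89 in the crossed call and 2.91 in the replicate 6 call. Its end region (22588347 to 22589129) had 3.41, 3.04 and 4.50. The start was thus the stronger end in the replicate 5 call and the weaker one in the other calls. At Os05g0359700 the regions (chromosome 5, 17135088 to 17135390 and 17135516 to 17135817) were about as wide as each other, 303 and 302 bp. At Os02g0797600 the regions covered nearly the whole gene between them (chromosome 2, 33952411 to 33953701 and 33953744 to 33955403, a gap of 42 bp), and their folds were 5.29 and 3.08 in the replicate 5 call, 4.91 and 2.39 in the crossed call, and 4.25 and 4.22 in the replicate 6 call.

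The gene with the most regions was Os01g0192101 (chromosome 1, 4949849 to 4951508), with 4. A region 734 bp upstream (4948550 to 4949114) had folds of 2.15 in the replicate 5 call, 4.16 in the crossed call and 4.61 in the replicate 6 call. A region 82 bp upstream (4949231 to 4949766) had 6.42, 4.55 and 3.11. Another (4949782 to 4951524) spanned the whole gene, with 3.55, 3.57 and 2.78. The last lay 3567 bp downstream (4955076 to 4955437), with 2.93, 3.19 and 2.43. The region strongest in the replicate 5 call was not the one strongest in the replicate 6 call. Only 15 bp separated the region that spanned the gene from its nearest neighbour.

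Rad6 (Os03g0791800, also listed as OsUBC9; chromosome 3, 32930349 to 32935490, minus strand) had 3 regions, all touching the gene. Rad6 is a ubiquitin-conjugating enzyme, known in yeast for tolerance of DNA damage and for ubiquitination of a histone. The region across its start (32935108 to 32935882) had folds of 3.06 in the replicate 5 call, 2.96 in the crossed call and 2.39 in the replicate 6 call. Of the 2 inside the gene, that at 32933454 to 32934165 had 6.68, 3.98 and 4.65, and that at 32932941 to 32933438 had 3.69, 4.32 and 2.83. The strongest region in both calls that share no library was therefore inside the gene, not at its start. Os03g0792050, on the plus strand across the same stretch, had the same 3 regions, and its end is the Rad6 start region. Os03g0791700 shared the pair inside Rad6, which lay downstream of it and were 15 bp apart.

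CycD6;1 (Os07g0556000; chromosome 7, 22169522 to 22171723, minus strand) is a D-type cyclin, a class that drives entry into the cell cycle. Its start region (22170982 to 22172014) had folds of 3.98 in the replicate 5 call, 4.99 in the crossed call and 3.26 in the replicate 6 call. The region at 22170402 to 22170743 inside the gene had 3.66, 4.26 and 2.22, and the next at 22169855 to 22170316 had 5.11, 3.75 and 2.30. The start region was the strongest in the replicate 6 call, while an internal one was the strongest in the replicate 5 call. Os07g0556066 on the opposite strand had the same 3 regions.

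OsS40-8 (Os10g0481000; chromosome 10, 18129498 to 18130451, minus strand) carries the name of the S40 family, known in barley from leaf senescence. The region across its start (18129614 to 18130721) had folds of 5.03 in the replicate 5 call, 3.73 in the crossed call and 3.76 in the replicate 6 call. Its downstream regions lay 345 bp away (2.56, 5.60 and 4.20) and 1145 bp away (3.81, 4.41 and 3.56).

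The other genes with 3 regions have no symbol in the files. Os07g0571100 and Os07g0682500 held the widest regions of the set. At Os07g0571100 a region of 5088 bp (chromosome 7, 23052469 to 23057556) crossed the start, with folds of 4.24 in the replicate 5 call and 4.23 in the replicate 6 call. At Os07g0682500 a region of 4332 bp (28929024 to 28933355) spanned the gene, with 3.02 and 4.84. All 3 regions of Os07g0546400 lay inside the gene, with folds of 2.47 to 3.14 in the replicate 6 call, and Os07g0546501 on the other strand shared them. Os07g0505300 had 1 region inside, 1 across the end and 1 downstream, with 3.10, 3.81 and 2.84 in the replicate 6 call. No region touched Os02g0696600, whose 3 regions had 2.33 to 3.11 in that call.

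**Figure D2:**
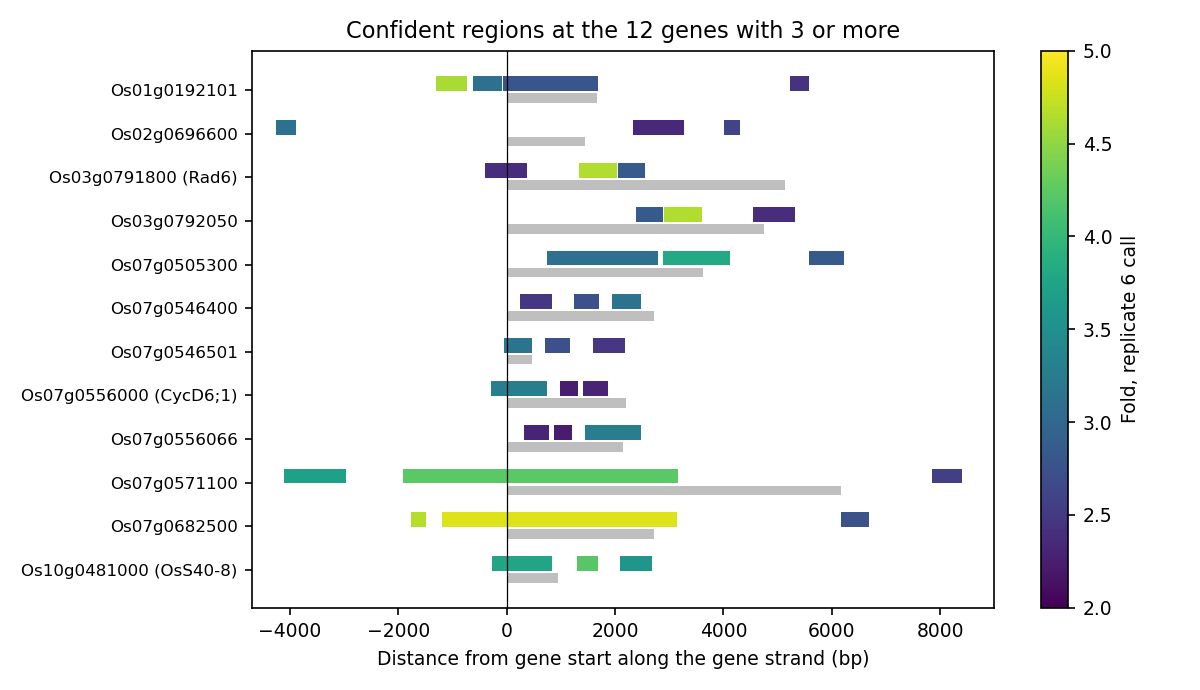
The 12 genes with 3 or more regions, drawn by distance in bp from the gene start along the strand of the gene (horizontal axis, one gene per line). Grey bars are genes, and coloured bars are regions, coloured by highest fold in the replicate 6 call. Opposite-strand partners such as Rad6 and Os03g0792050 show the same regions mirrored, and Os02g0696600 has none on the gene.

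Chromosome 7 held 7 of the 12 genes with 3 or more regions, in 5 of their 9 loci, beside 208 of the 2589 table genes. It held 21 of the 174 genes, 10.1% of the 208 table genes on it, beside 6.72% over all chromosomes. The share was lowest on chromosome 11, at 3 of 119 (2.52%), and was 8.80% on chromosome 2 and 8.12% on chromosome 3.

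Regions of the same gene were often close together. The 174 genes gave 123 distinct gaps between neighbouring regions, with a median of 1257 bp, quartiles of 314 and 3435 bp and a range of 15 to 11361 bp. Over all 1442 regions, neighbours on a chromosome lay a median of 120280 bp apart, and 66 of 1430 gaps were under 1000 bp. The rule picks regions within 4000 bp of a gene, so short gaps follow from it. Of the 123 gaps, 50 (40.7%) were under 900 bp, the upper size of the chromatin fragments, and 26 were under 250 bp. When regions with a gap under 1000 bp were counted as 1, 94 of the 174 genes still had 2 or more. Whether close regions mark separate sites was not tested.

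**Figure D3:**
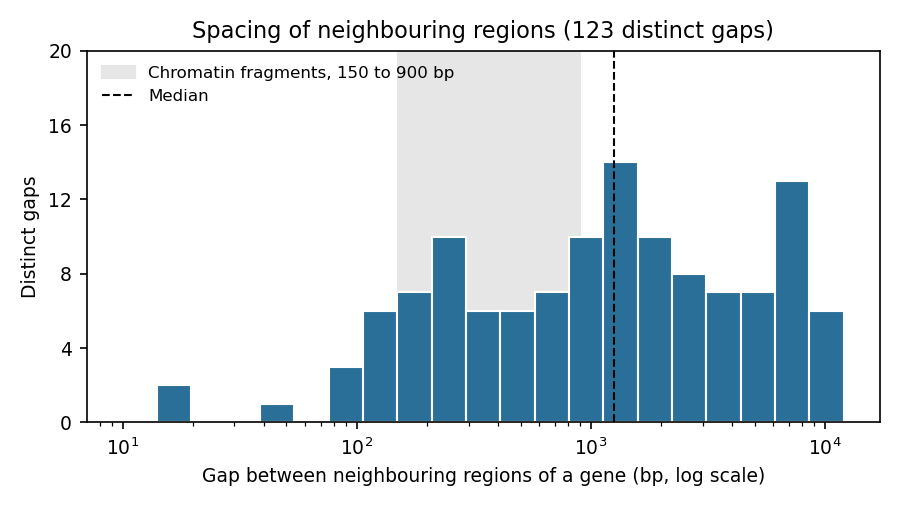
Histogram of the 123 distinct gaps between neighbouring regions of a gene (horizontal axis in bp, log scale, and number of gaps on the vertical axis). The grey band is the stated range of chromatin fragments, 150 to 900 bp, and the dashed line is the median of 1257 bp, which lies above that band.

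The widest gaps had the whole gene between the regions. In Os09g0540350 the gap was 11361 bp, with regions 3763 bp upstream (chromosome 9, 21264553 to 21264761) and 2897 bp downstream (21276123 to 21276346). Their folds were 4.48 and 4.39 in the replicate 5 call, 3.56 and 4.31 in the crossed call, and 4.13 and 3.92 in the replicate 6 call. At OsNDPK3 (Os05g0595400), a nucleoside diphosphate kinase gene, the gap was 10132 bp. Its downstream region (chromosome 5, 29656662 to 29657056) had 4.18 in the replicate 5 call, 3.90 in the crossed call and 2.40 in the replicate 6 call, and its upstream region (29667189 to 29667525) had 2.07, 3.61 and 3.73. The replicate 6 call thus had the opposite order to the others. At BIP124 (Os11g0602300) the gap was 8625 bp, and its downstream region was the most distant of any in the set, at 3974 bp. Os02g0733200 and Os12g0209300 had gaps of 9185 and 9030 bp.

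The 4000 bp limit decided some memberships. Among genes with 2 regions, 17 had one at 3500 bp or more, the farthest being that of BIP124 at 3974 bp. Outside the limit, 19 genes with 1 region had a second 4000 to 4499 bp away, the closest being Os07g0580300 at 4004 bp and Os03g0759000 at 4013 bp.

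Regions of the 174 genes were about as strong and as wide as the other 1211 regions. In the replicate 5 call the median fold was 3.20 for the 231 regions and 3.32 for the others, with a range of 2.02 to 9.01 for the 231. In the crossed call the medians were 3.87 and 3.82, and in the replicate 6 call they were 3.26 and 3.06, with a range of 2.02 to 9.49 for the 231. A fold of at least 3 in both the replicate 5 and the replicate 6 call was reached by 86 of the 231 (37.2%) and by 34.2% of the others. Median widths were 585 and 546 bp. Across the 231 regions, Pearson's r of the folds in those 2 calls was 0.30 and Spearman's rho 0.19, and across the others 0.19 and 0.11. These are across regions chosen for a peak in every list, with folds cut off at about 2, and regions are not replicates.

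**Figure D4:**
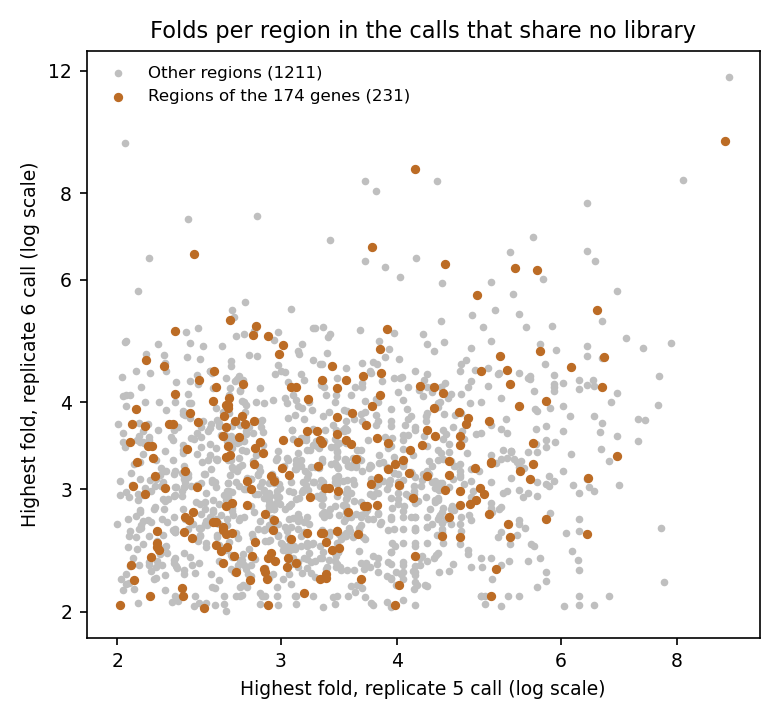
Highest fold of each region in the replicate 5 call (horizontal axis) and the replicate 6 call (vertical axis), both on log scales. Brown points are the 231 regions of the 174 genes and grey points the other 1211. The brown points spread through the grey ones, and the brown point at the upper right (9.01 and 9.49) is the region across the start of Os03g0765900.

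Only 29 genes, in 18 loci, had 2 regions that each reached a fold of 3 in both of those calls. The genes whose weakest region was strongest lay on chromosome 9. Os09g0539901, Os09g0540000 and Os09g0540150 shared a region at 21261343 to 21261883, with 4.77 in the replicate 5 call, 5.89 in the crossed call and 3.79 in the replicate 6 call. Their other region (21264553 to 21264761) had 4.48, 3.56 and 4.13 and was also the upstream region of Os09g0540350. None of the 4 genes has a symbol in the files.

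On chromosome 7, Os07g0571200 and Os07g0571300 shared the 5088 bp region with Os07g0571100, and their other region (23058602 to 23059744) had folds of 3.71 in the replicate 5 call, 3.56 in the crossed call and 3.71 in the replicate 6 call. Os01g0894500 had a region 1979 bp upstream (chromosome 1, 38888741 to 38889171) with 3.58, 3.25 and 3.86. Its region inside the gene (38891176 to 38891567) had 4.39, 5.25 and 3.58. Os11g0202500 was spanned by a region (chromosome 11, 5178369 to 5179361) with 3.52, 3.93 and 4.31, and had another 3440 bp downstream with 3.91, 5.19 and 5.10. Os08g0438400 and Os08g0438501, on opposite strands, shared regions with 3.87 and 3.42 in the replicate 6 call. The downstream region of Os11g0202500 was thus the stronger of its pair in all 3 calls.

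The order of 2 regions of a gene often differed between the calls that share no library. The 162 genes with 2 regions gave 106 distinct region pairs. The region with the higher fold was the same in the replicate 5 and replicate 6 calls in 62 pairs (58.5%), beside 37 of 67 pairs (55.2%) for the genes left out by the exclusions. The stronger region exceeded the weaker by a median of 1.24 times in the replicate 5 call and 1.30 times in the replicate 6 call. A ratio under 1.5 occurred in 76 and 73 pairs. With so small a difference in most pairs and no replicate error on a fold, the order within a pair is not established by these calls.

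Only 1 pair differed by 2-fold or more in both of those calls, that of Os03g0765900 (chromosome 3, 31725194 to 31725857), which Os03g0765800 and Os03g0766000 share. The region across the start of Os03g0765900 (31723337 to 31725797) had folds of 9.01 in the replicate 5 call, 8.17 in the crossed call and 9.49 in the replicate 6 call. The region 2833 bp upstream (31722070 to 31722360) had 2.62, 4.07 and 2.83. A difference of 2-fold or more was found in 10 pairs in the replicate 5 call and in 8 in the replicate 6 call. Os08g0414900 was one of the unequal pairs in the replicate 6 call alone. Its region 65 bp upstream (chromosome 8, 19843152 to 19843501) had 4.19 in the replicate 5 call, 4.19 in the crossed call and 8.66 in the replicate 6 call, and its region 3944 bp downstream (19847973 to 19848347) had 3.23, 3.53 and 2.93.

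**Figure D5:**
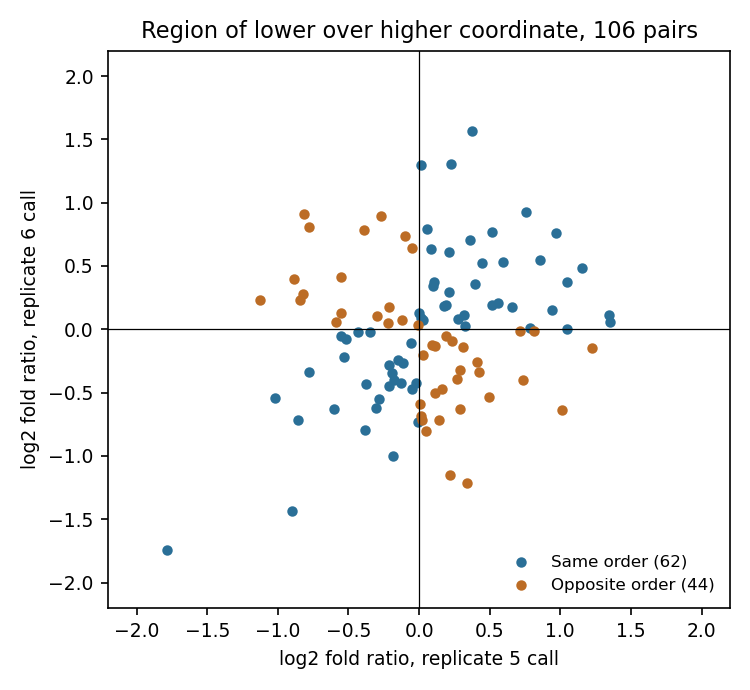
Each point is 1 of the 106 distinct region pairs, and the axes give the log2 ratio of the fold of the region with the lower coordinate to that of the other, in the replicate 5 call (horizontal) and the replicate 6 call (vertical). Blue points (62) have the same region stronger in both calls and brown points (44) do not. Most points lie near the centre, and the point at the lower left is the pair at Os03g0765900.

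Symbols are given for 25 of the 174 genes (14.4%), beside 17.8% of genes with 1 region outside the exclusions. The genes named from here on were chosen because they have a symbol, after their values were seen. SF21, OsSKgamma, YDA2, OsGH9B1, OsGATA3, OsGATL8, OsLIN1, OsDAHP1, rbohG, PPR1 and OsALDH12B1 each shared both regions with another of the 174. Naming a region under the gene with a symbol does not give it to that gene alone. Cell wall names recurred among them: OsIRX10, OsGATL8, OsGH9B1, OsBgal1, OsFLA26 and OsAGP13, 6 of 25. The same name stems occurred in 13 of 341 genes with a symbol outside the exclusions (3.81%, these 6 included) and in 16 of all 879, of which 10 had 1 region. The stems were picked after the symbols were read, so these counts are no test.

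OsIRX10 (Os01g0926700), named for a glycosyltransferase that builds xylan, had both regions upstream. The nearer, at 854 bp (chromosome 1, 40635618 to 40636138), had folds of 2.81 in the replicate 5 call, 3.22 in the crossed call and 3.26 in the replicate 6 call. The farther, at 2436 bp (40637200 to 40637580), had 5.71, 2.96 and 4.73. The farther region was the stronger in the calls that share no library, and not in the crossed call.

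OsGH9B1 (Os02g0733300), named as a family 9 glycoside hydrolase (plant endoglucanases), had a region across its start with 2.60 in the replicate 5 call, 4.34 in the crossed call and 2.65 in the replicate 6 call, and another inside with 3.01, 3.53 and 3.22. The latter also lay 2994 bp downstream of OsCML20, a calmodulin-like calcium sensor gene. OsBgal1 (Os03g0165400), a beta-galactosidase gene, had a region inside (2.36, 4.07 and 2.61) and another 2030 bp upstream (4.06, 3.77 and 3.30). OsGATL8 (Os03g0300900), of a glycosyltransferase family, had regions 768 bp upstream (2.21, 2.46 and 2.48) and 701 bp downstream (2.72, 2.61 and 3.82). OsAGP13 (Os07g0590700), an arabinogalactan protein gene, had one inside (2.68, 5.70 and 3.76) and another 618 bp upstream (2.14, 3.73 and 3.70). The order of the 2 regions was the same in all 3 calls in OsGATL8 and OsAGP13. In OsGH9B1 and OsBgal1, as in OsIRX10, it was the same in the replicate 5 and replicate 6 calls and the reverse in the crossed call, while in OsFLA26 the replicate 5 call stood against the other two.

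Among signalling genes, Os01g0252100 (chromosome 1, 8329791 to 8333933) is listed in the gene table as OsSKgamma, a name of the SHAGGY-like kinases, with OsGSK2 among its synonyms. The region across its start (8329456 to 8330885) had folds of 2.18 in the replicate 5 call, 4.18 in the crossed call and 3.46 in the replicate 6 call. The region 391 bp downstream (8334325 to 8334954) had 3.20, 2.86 and 2.60. The start was the weaker in the replicate 5 call and the stronger in the crossed and replicate 6 calls. YDA2 (Os02g0666300), named for a protein kinase that acts in stomatal patterning in Arabidopsis, had both regions downstream, at 1653 bp (2.22 in the replicate 5 call, 4.19 in the crossed call and 2.45 in the replicate 6 call) and at 3404 bp (3.02, 2.90 and 3.53). The crossed call reversed the order of the others. OsGATA3 (Os02g0806300), a GATA zinc-finger factor gene, had one across its end (3.31, 3.66 and 3.53) and another 1018 bp downstream (4.85, 4.39 and 3.22). The regions of OsGATA3 lay inside Os02g0806350, on the other strand.

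Genes of reactive oxygen chemistry included rbohG (Os09g0438000; chromosome 9, 16186282 to 16197135), an NADPH oxidase gene whose product makes superoxide at the plasma membrane. Both of its regions lay inside the gene. The first (16187536 to 16188212) had folds of 3.76 in the replicate 5 call, 6.58 in the crossed call and 6.69 in the replicate 6 call, and the second (16189470 to 16189817) had 2.63, 3.85 and 3.92. The first was the stronger in all 3 calls. SodB (Os06g0143000), an iron superoxide dismutase gene, had a region 231 bp upstream (chromosome 6, 2256367 to 2256635) with 6.90, 3.99 and 3.35, and another just inside the gene (2256885 to 2257233) with 6.40, 3.70 and 2.59. The annotated start, 2256867, lay in the 249 bp between them. Both were higher in the replicate 5 call than in the other calls.

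Metabolic genes included OsDAHP1 (Os07g0622200), which encodes the entry enzyme of the shikimate pathway. Its start region had 2.30 in the replicate 5 call, 2.72 in the crossed call and 3.72 in the replicate 6 call, and its region 3336 bp downstream had 4.75, 4.88 and 3.72. OspPLAIIIzeta (Os12g0611300), a patatin-related phospholipase gene, had 2.65 in the replicate 5 call, 7.26 in the crossed call and 5.26 in the replicate 6 call across its start (chromosome 12, 25840269 to 25840869). Its region inside the gene (25838656 to 25839317) had 3.35, 4.09 and 2.27. OsALDH12B1 (Os12g0596000), an aldehyde dehydrogenase gene, had both regions upstream, at 2596 bp (2.37, 2.33 and 3.18) and 3962 bp (2.76, 3.44 and 3.08). Os12g0594000, whose symbol names a WD40-repeat protein, had both inside, with 2.87 and 5.29 in the replicate 5 call. The order was the opposite in the crossed call (3.82 and 3.45) and in the replicate 6 call (3.38 and 2.56).

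The remaining genes with a symbol were SF21, OsLIN1, PPR1 and OsMaT-3. PPR1 (Os10g0493100) had both regions upstream, 164 bp apart, and both touched Os10g0493300. OsLIN1 (Os06g0675200) had one across its end and another inside, and both also touched Os06g0675300 on the other strand. SF21 (Os01g0192600) had a start region with 2.54 in the replicate 5 call, 4.94 in the crossed call and 4.02 in the replicate 6 call. That region also crossed the end of Os01g0192700 on the other strand. OsMaT-3 is listed under Os02g0485000, an identifier of chromosome 2, yet the table places the gene and its regions on chromosome 10 (16750758 to 16750962 inside the gene and 16758368 to 16759424 downstream). It is 1 of 2 genes in the table whose identifier and chromosome disagree, and the only one of the 174. Its regions had folds of 4.12 and 3.33 in the replicate 5 call, 3.49 and 3.58 in the crossed call, and 3.17 and 3.49 in the replicate 6 call.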

How the data were processed

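Reads were handled with fastp, Bowtie2 and SAMtools, and deepTools and MACS2 were also used, per the submitters' processing notes, which give no versions. The authors deposited read counts per library and, per the file headers, 3 peak lists made from single IP and mock libraries, with a fold enrichment and −log10 p and q per peak. Per the file headers, they merged peaks that overlap in all lists and assigned them to nearby genes. Their 2 deposited copies of that table gave the same 2862 pairs.

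From these files, genes with 2 or more regions were counted and the rule's exclusions applied, matching symbol text with case. A region took the highest fold and the smallest q of the peaks that overlap it by 1 bp or more. Touching means a distance of 0 bp. Crossing the start includes spanning the gene.

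The members, lists and comparisons were chosen with earlier results of these data known. The rule for named genes took those with 3 or more regions, the 10 of highest weakest fold, and the 5 with the widest and the 5 with the narrowest gaps. All other genes named were chosen after their values were seen, among them those with a symbol, the locus of 5 genes, those with regions across start and end, the pair at Os03g0765900, Os08g0414900, neighbours that share a region, and those at the distance or q limits. Planned functional classes by description could not be formed, since the table gives symbols only. Planned promoter motifs were not searched, as no sequence was used here. No test was made: each fold comes from single libraries. Region rebuilding was tested on simulated data without close sites or overlapping genes, so that test does not cover either of these. Python 3.11.15, numpy 2.4.6, pandas 2.3.3 and matplotlib 3.10.9 were used.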

Additional observations from a re-analysis of the deposited data

How the results depend on the processing

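The number of genes with 2 or more regions depended on how a region was defined. It was 174 as reported, 171 with a q of at most 0.01 in the replicate 5 and replicate 6 calls (Os04g0479550, Os05g0345137 and Os05g0345175 were lost), 178 with regions rebuilt from the 3 lists and 159 with an overlap of 100 bp, of which 174 and 152 were among the original 174. It was 29 with a fold of at least 3 in both calls, 94 with gaps under 1000 bp closed and 58 when a region had to touch the gene or have its midpoint within 2 kb upstream. Leaving out 1 library gave 446 to 1184 genes: 1043 without IP5, 972 without IP6, 446 without mock 5 and 1184 without mock 6. Fewer lists then have to agree, so by construction more regions pass and nearly all of the 174 are found again. At least 171 of the 174 were found each time, which is therefore no measure of stability. The count of pairs with the same stronger region was 62 of 106, and it was 59 by mean fold and 62 by smallest q. With the crossed call in place of the replicate 5 call it was 66. The crossed call shares mock 6 with the replicate 6 call, so that count is not for calls that share no library. Starts were crossed in 64 genes, in 78 by a midpoint within 500 bp, and in 36 of the 94 genes left when gaps under 1000 bp were closed. No paired analysis was possible because the peak files give no values per library to fit a replicate block to. The replicate 5 and replicate 6 calls already set each IP against the mock of its own number, and the crossed call does not. Folds are for single library pairs, so depth limits their precision by an amount that these files do not give.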
